A study of Homo sapiens with 10 samples.

Results

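The MYC, MAX and MXD network was followed through 8 genes of the 58735 in the expression table: MYC, MAX, MXD1, MXI1, MXD3, MXD4, MNT and MGA. They were taken by gene symbol, without regard to their values, and all 8 passed the low-expression filter (at least 1 FPKM in at least 2 libraries), which left 13927 genes for testing. FPKM, fragments per kilobase of gene length scaled to the size of the library, lets libraries be set side by side. For the 8 members that length equalled the merged exons of all annotated transcripts. FPKM levels of different genes therefore also depend on the annotation. The cells were TPC-1, a papillary thyroid carcinoma line that carries the CCDC6-RET fusion, and all 5 groups shared that line and that fusion. Parental cells had been exposed for 24 h to the solvent DMSO or to 5 µM BLU667, which is the RET kinase inhibitor pralsetinib. BR8, BR10 and BR16 were colonies derived from parental cells kept in 5 µM BLU667, for more than 50 days according to the sample labels and for more than 5 months according to the series design. The question was how the transcriptome of cells adapted to the inhibitor compares with that of parental cells, untreated or treated for 24 h. Each group had 2 libraries, which the series design calls biological replicates, so every p-value below measures the spread between such libraries of 1 cell line. Each colony stands for 1 line grown out under drug, and the groups hold no drug-free culture of any colony.

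MYC is a transcription factor that binds DNA as a heterodimer with MAX, at the E-box sequence, and drives genes of ribosome production, nucleotide and polyamine synthesis and cell-cycle entry. The MXD proteins (MXD1, MXI1, MXD3 and MXD4) and MNT compete for MAX and recruit the SIN3-HDAC corepressor to the same sites, so that the network is often described as a switch between growth and quiescence. MGA, a much larger MAX partner, belongs to the Polycomb complex PRC1.6, which silences germline genes. In cells driven by a receptor tyrosine kinase, MYC transcription and MYC protein stability both depend on signalling through the RAS-ERK and PI3K pathways.

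Sequencing depth lay between 15243703 and 21904245 reads in genes per library. Among thyroid markers, PAX8 (35.3 to 94.7 FPKM), FOXE1 (2.04 to 4.17) and HHEX (1.14 to 4.90) were expressed, while TG, TSHR, SLC5A5, NKX2-1, DIO1 and DIO2 stayed under 1 FPKM in all 10 libraries. KRT8 and KRT18 were expressed, whereas the epithelial markers EPCAM, CDH1 and KRT19 also stayed under 1 FPKM in every library, as did all 12 markers of immune, endothelial, erythroid, C and fibroblast cells. Libraries differed in how levels followed the GC content of transcripts: the Spearman correlation across genes of that content with the log2 difference was 0.62 for DMSO replicate 1 over replicate 2, -0.61 for BR8 over BR16 and -0.53 for BR10 over BR16. Network members with GC-rich transcripts (MNT at 61.4%, MXD3 at 61.3%, MXD4 at 57.6%) are therefore also given with each library's GC trend removed where that changed a call. The same is done for some values that moved without a change of call. In RNA from whole cultures, fewer cells of a type and less RNA per cell cannot be told apart.

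Promoter sequences were available for 7 of the 8 members, all but MYC, in 12 windows that run from 250 bases before to 50 bases after a transcription start (RefSeq, GRCh38.p14). They were searched on both strands for the E-box CACGTG, the site bound by MYC-MAX and by MXD-MAX dimers, and for the forkhead core GTAAACA, the site of FOXO factors, which are known to act on MXI1. Among 35116 windows of all genes, 7.26% held CACGTG and 3.42% held GTAAACA. The 4 windows with a match are shown because they belong to MXI1 and MXD4, the members that rose under BLU667, and to MNT; capitals mark the match, and each sequence is read 5′ to 3′ along the gene's own strand.
MXD4, chr4:2262060-2262359, minus strand: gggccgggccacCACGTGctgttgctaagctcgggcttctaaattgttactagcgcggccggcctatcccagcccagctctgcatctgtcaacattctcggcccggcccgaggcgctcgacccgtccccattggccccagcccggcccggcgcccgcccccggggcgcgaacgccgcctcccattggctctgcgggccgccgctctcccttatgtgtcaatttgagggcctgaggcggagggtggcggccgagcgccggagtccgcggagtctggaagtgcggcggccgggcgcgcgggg
MNT, chr17:2401011-2401310, minus strand: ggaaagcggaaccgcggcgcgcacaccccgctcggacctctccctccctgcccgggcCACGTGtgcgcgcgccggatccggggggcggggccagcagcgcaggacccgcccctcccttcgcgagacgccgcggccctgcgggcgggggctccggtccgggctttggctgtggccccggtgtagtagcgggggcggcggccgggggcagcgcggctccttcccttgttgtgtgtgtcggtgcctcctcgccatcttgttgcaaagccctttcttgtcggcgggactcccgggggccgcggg
MXI1, chr10:110209981-110210280, plus strand: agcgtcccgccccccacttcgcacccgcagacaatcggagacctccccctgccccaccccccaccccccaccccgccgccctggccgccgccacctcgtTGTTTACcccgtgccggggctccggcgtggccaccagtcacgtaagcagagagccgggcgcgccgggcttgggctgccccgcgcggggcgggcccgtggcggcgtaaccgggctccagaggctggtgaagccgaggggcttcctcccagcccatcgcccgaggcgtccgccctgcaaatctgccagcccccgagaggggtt
MXI1, chr10:110225746-110226045, plus strand: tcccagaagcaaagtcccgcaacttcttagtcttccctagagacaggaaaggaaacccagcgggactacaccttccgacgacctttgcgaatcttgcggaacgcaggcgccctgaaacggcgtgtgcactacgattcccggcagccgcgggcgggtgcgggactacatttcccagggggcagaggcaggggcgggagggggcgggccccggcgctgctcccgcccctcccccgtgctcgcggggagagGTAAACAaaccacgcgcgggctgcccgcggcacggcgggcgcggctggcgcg
The E-box lay 238 bases upstream of the MXD4 start and 193 bases upstream of the MNT start. The forkhead core lay 151 bases upstream of the MXI1 start in the window beginning at 110209981, where it reads TGTTTAC on the printed strand. In the window beginning at 110225746 it began 2 bases upstream and ran across the start. The other windows, among them the remaining MXI1 window and those of MAX, MXD1, MXD3 and MGA, held neither string. These matches describe letters within a short window and were not tested as binding sites.

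By FPKM, MYC stood highest of the members in every library. Counted in reads, MXD4 exceeded MYC in both BLU667 libraries (2948 and 2580 against 2268 and 1675). MXI1 exceeded it in BLU667 replicate 2 (1931 reads). MYC levels were 78.9 and 73.9 FPKM in DMSO, 42.9 and 32.1 in BLU667, 36.8 and 38.6 in BR8, 56.5 and 65.9 in BR10, and 68.1 and 70.5 in BR16. Both BLU667 libraries lay below both DMSO libraries, BR8 fell within the range of BLU667, and BR10 and BR16 lay between BLU667 and DMSO without touching either. After 24 h of BLU667 MYC was 2.04-fold lower than in DMSO, a change of -1.02 ± 0.13 on the log2(FPKM + 1) scale (SE of the limma fit, adjusted p = 0.000276 by Benjamini-Hochberg over all tested genes). By mean level the order was DMSO (76.4 ± 3.58 FPKM, SD, n = 2), BR16 (69.3 ± 1.64), BR10 (61.2 ± 6.60), BR8 (37.7 ± 1.23) and BLU667 (37.5 ± 7.65). Neither DMSO and BR16 (log2 difference -0.14, 95% interval -0.45 to 0.17, adjusted p = 0.435) nor BR16 and BR10 (-0.18, adjusted p = 0.313) were told apart. By contrast, BR8 lay below BR10 (-0.68, adjusted p = 0.00803), a call kept in 19 of 21 alternative settings. That difference was -0.65 without BR8 replicate 1 and -0.57 without BR10 replicate 2. BR8 and BLU667 differed by 0.02 (95% interval -0.29 to 0.33, adjusted p = 0.913). MYC (ENSG00000136997) lies at chr8:127735434-127741434 on the plus strand, and its exons overlap no other gene's exons in the GENCODE annotation.

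Averaged over the 3 colonies, MYC was lower than in DMSO by -0.49 ± 0.11 (adjusted p = 0.00694) and higher than in BLU667 by 0.53 ± 0.11 (adjusted p = 0.00313). The colonies were not alike in this. BR8 was lower than DMSO (-1.0 on the log2 scale, adjusted p = 0.000458), BR10 gave -0.32 (adjusted p = 0.0932, or 0.0331 without either BLU667 library) and BR16 gave -0.14. Against BLU667, BR10 was higher by 0.70 (adjusted p = 0.00273) and BR16 by 0.88 (adjusted p = 0.00071). Leaving out BR8 turned the average against DMSO to -0.23 (adjusted p = 0.15), and with the 3 colony means as replicates the adjusted p was 0.297 against DMSO and 0.192 against BLU667. Without BLU667 replicate 2, the BLU667 library with the lower MYC level, the average against BLU667 was 0.33 (adjusted p = 0.0321).

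MAX, the dimerization partner that MYC and the MXD proteins share, varied within a narrow band. DMSO held 6.67 and 6.71 FPKM, BLU667 5.78 and 4.95, BR8 4.92 and 6.04, BR10 7.0 and 7.13, and BR16 8.48 and 8.42. The BR16 libraries were the highest of all, and the BLU667 and BR8 libraries lay below the other 3 groups. Under BLU667 MAX fell by 0.28 on the log2 scale (SE 0.10, adjusted p = 0.0447), a call that was kept in 8 of 21 alternative settings. In BR16 it was higher than in DMSO by 0.30 (adjusted p = 0.043, kept in 9 of 21) and higher than in BLU667 by 0.57 (adjusted p = 0.00159). The colony average was 0.31 above BLU667 (adjusted p = 0.0111), a value of 0.18 (adjusted p = 0.104) without BR16, and the call was also lost with the GC trend removed (0.19, adjusted p = 0.0678). Without BLU667 replicate 2, MAX in BLU667 stood at -0.18 against DMSO (adjusted p = 0.242). Neighbours in the order BR16, BR10, DMSO, BR8, BLU667 did not pass the test against each other, although with the GC trend removed BR8 lay below DMSO (-0.27, adjusted p = 0.0475). MAX (ENSG00000125952) lies at chr14:65006174-65102695 on the minus strand.

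**Figure D1:**
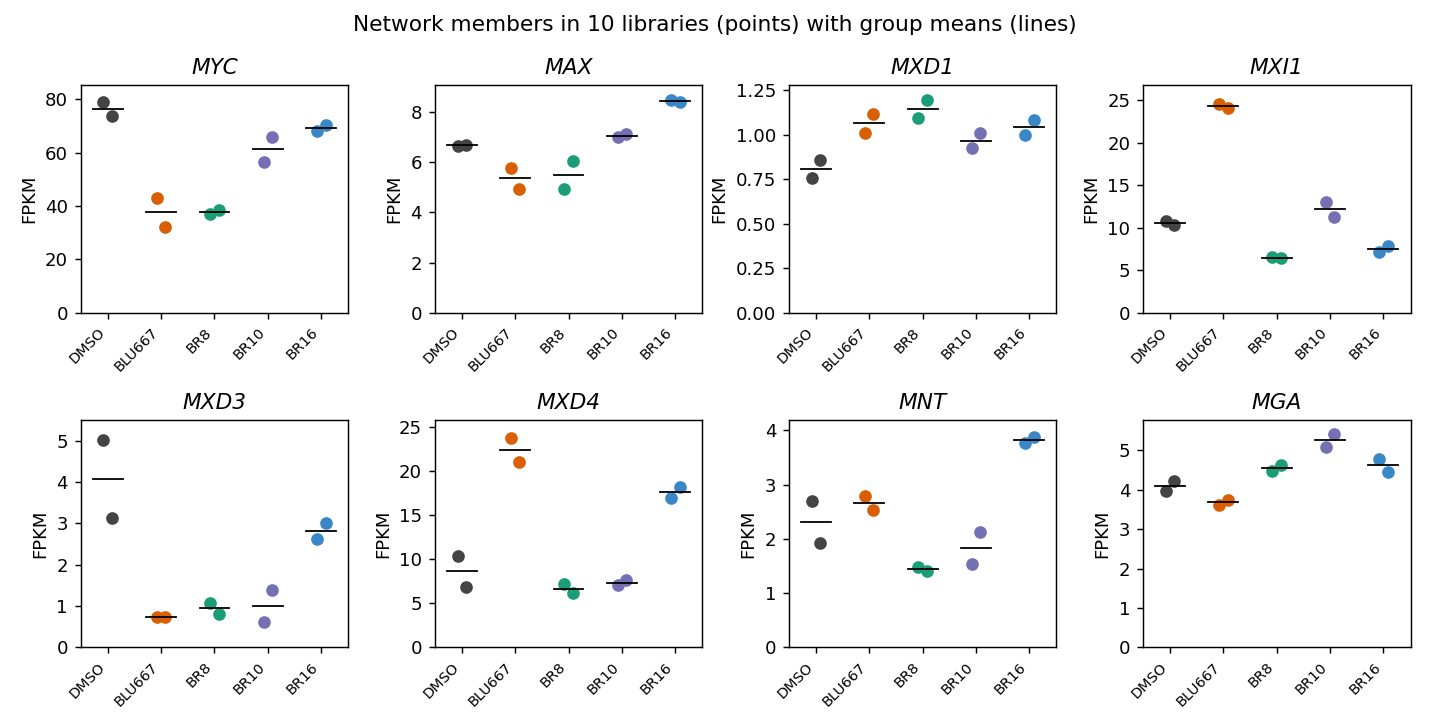
FPKM of the 8 members (y axis, linear, each panel with its own scale from 0) in the 5 groups (x axis), with 1 point per library and a line at the group mean. MYC is high in DMSO, BR10 and BR16 and low in BLU667 and BR8, MXI1 peaks in BLU667 at 24.6 and 24.1 FPKM, and MXD4 is high in BLU667 and BR16.

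MXI1 and MXD4 were the members that rose under BLU667. MXI1, an antagonist of MYC that is known as a FOXO target, read 10.8 and 10.3 FPKM in DMSO, 24.6 and 24.1 in BLU667, 6.56 and 6.38 in BR8, 13.0 and 11.3 in BR10, and 7.18 and 7.82 in BR16. The BLU667 libraries stood far above all others, and BR8 and BR16 lay below DMSO without overlap. The acute rise was 2.32-fold (log2 1.14 ± 0.086, adjusted p = 1.14e-05). All colonies were below BLU667, by -1.76 in BR8 (adjusted p = 1.5e-06), -0.95 in BR10 (adjusted p = 4.86e-05) and -1.58 in BR16 (adjusted p = 3.62e-06). Their average against BLU667 was -1.43 ± 0.07 (adjusted p = 1.21e-06), and MXI1 was the member that kept this call with the 3 colony means as replicates (adjusted p = 0.00658).

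Against DMSO, MXI1 was lower in BR8 (-0.63, adjusted p = 0.000498) and BR16 (-0.44, adjusted p = 0.00361) and was 0.19 in BR10 (95% interval -0.01 to 0.39, adjusted p = 0.113). The colony average against DMSO was -0.29 ± 0.07 (adjusted p = 0.0089), which became -0.13 (adjusted p = 0.206) without BR8 and -0.53 (adjusted p = 0.00055) without BR10, and lost its call with colony means as replicates (adjusted p = 0.47). BR10 exceeded BR16 by 0.63 (adjusted p = 0.0011), BR8 lay below BR10 by -0.81 (adjusted p = 0.000393), and BR8 and BR16 were not told apart (-0.19, adjusted p = 0.106), although with the GC trend removed BR8 lay below BR16 by -0.35 (adjusted p = 0.0127). MXI1 (ENSG00000119950) lies at chr10:110207605-110287365 on the plus strand, and its windows with the forkhead core are those printed above.

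MXD4, which is expressed mainly in differentiated and resting cells, read 10.4 and 6.88 FPKM in DMSO, 23.7 and 21.0 in BLU667, 7.19 and 6.12 in BR8, 7.12 and 7.60 in BR10, and 17.0 and 18.2 in BR16. BLU667 and BR16 were both above every library of the other groups, and BR8 and BR10 overlapped DMSO. The acute rise was 2.59-fold (log2 1.30 ± 0.16, adjusted p = 0.000208). BR16 was 2.03-fold above DMSO (0.97 ± 0.16, adjusted p = 0.00175) and not told apart from BLU667 (-0.33, 95% interval -0.71 to 0.05, adjusted p = 0.116), although with the GC trend removed it lay below BLU667 by -0.66 (adjusted p = 0.00107). BR8 (-0.31, adjusted p = 0.146) and BR10 (-0.18, adjusted p = 0.411) did not pass the test against DMSO, and both lay below BLU667, by -1.61 and -1.48. With the GC trend removed, BR8 and BR10 stood at -0.086 and -0.03 against DMSO. Without DMSO replicate 2 they were lower than DMSO, by -0.58 (adjusted p = 0.00512) and -0.45 (adjusted p = 0.0191).

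Over the 3 colonies MXD4 averaged 0.16 against DMSO (adjusted p = 0.358), a mean of colonies on either side of 0. That value was 0.43 (adjusted p = 0.0136) without DMSO replicate 1, the library with the higher MXD4 level of its group. Against BLU667 the average was -1.14 ± 0.13 (adjusted p = 0.000138), with an adjusted p of 0.0673 when the colony means served as replicates. MXD4 (ENSG00000123933) lies at chr4:2247432-2262294 on the minus strand.

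MXD3, a member linked to dividing cells rather than to differentiation, read 5.02 and 3.13 FPKM in DMSO, 0.728 and 0.737 in BLU667, 1.08 and 0.806 in BR8, 0.612 and 1.39 in BR10, and 2.63 and 3.01 in BR16. DMSO lay above every other group and BR16 above the remaining 3. BR8 lay above BLU667 without overlap, and BR10 spanned both. The mean was 5.57-fold lower in BLU667 than in DMSO (log2 -1.53 ± 0.22, adjusted p = 0.000478, or -2.45 with voom on the recovered reads, which adds no pseudocount of 1 FPKM). BR8 (-1.36, adjusted p = 0.00124) and BR10 (-1.35, adjusted p = 0.00202) were lower than DMSO as well, and BR16 gave -0.39 (adjusted p = 0.191), or -0.62 with the GC trend removed (adjusted p = 0.00948). The colony average was -1.03 ± 0.18 against DMSO (adjusted p = 0.00196, or 0.0906 with colony means as replicates) and 0.49 ± 0.18 against BLU667 (adjusted p = 0.0429, kept in 13 of 24 alternative settings and at 0.17 without BR16).

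All MXD3 values are uncertain, because the libraries did not mark strand and 22.5% of its exonic bases are shared with PRELID1 and 18% with RAB24. PRELID1, a mitochondrial lipid-transfer protein gene, averaged 54.4 FPKM in DMSO, 17.3 in BLU667, 17.1 in BR8, 14.2 in BR10 and 36.6 in BR16, which is the high and low pattern of MXD3 at a far higher level. RAB24 averaged 2.08, 3.79, 1.22, 0.848 and 3.33 FPKM in the same order. The part of these genes' reads in the MXD3 result was not tested. MXD3 (ENSG00000213347) lies at chr5:177301461-177312757 on the minus strand.

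MXD1, the MYC antagonist known from terminal differentiation, had the lowest counts over the 10 libraries as a whole, with 86 to 145 reads per library. It read 0.756 and 0.856 FPKM in DMSO, 1.01 and 1.11 in BLU667, 1.09 and 1.20 in BR8, 0.925 and 1.01 in BR10, and 0.999 and 1.08 in BR16. Both DMSO libraries were the lowest of the 10, but none of the 9 comparisons with DMSO, with BLU667 or over the colony average passed the test. BR8 was called higher than DMSO with voom on the recovered reads (0.51, adjusted p = 0.0488) and with no variance trend (0.25, adjusted p = 0.0329). The BLU667 difference from DMSO was 0.19 (95% interval -0.06 to 0.44, adjusted p = 0.16) and the colony average gave 0.18 (95% interval -0.02 to 0.39, adjusted p = 0.124). MXD1 (ENSG00000059728) lies at chr2:69897688-69942945 on the plus strand and shares 3.73% of its exonic bases with SNRNP27. SNRNP27 averaged 9.80 FPKM in DMSO, 6.68 in BLU667, 9.01 in BR8, 9.25 in BR10 and 8.68 in BR16. The part of its reads in the MXD1 values was not tested.

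MNT, the constitutive MAX-binding repressor, was highest in BR16 and lowest in BR8. DMSO held 2.70 and 1.93 FPKM, BLU667 2.80 and 2.54, BR8 1.49 and 1.41, BR10 1.54 and 2.13, and BR16 3.77 and 3.87. BR16 stood above all other libraries and BR8 below them, whereas DMSO overlapped both BLU667 and BR10. BLU667 against DMSO gave 0.16 (adjusted p = 0.363), and 0.36 with the GC trend removed (adjusted p = 0.00455). The colony average against BLU667 was -0.19 (adjusted p = 0.182), and -0.23 with the GC trend removed (adjusted p = 0.0157).

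BR16 exceeded DMSO in MNT by 0.55 (adjusted p = 0.0126, or 0.32 with the GC trend removed), and BR8 lay below it by -0.43 (adjusted p = 0.0323), a value that was -0.03 (adjusted p = 0.787) after removal of the GC trend and -0.26 (adjusted p = 0.169) without DMSO replicate 1. BR8 (-0.58, adjusted p = 0.00722) and BR10 (-0.38, adjusted p = 0.0488) were below BLU667. With the GC trend removed these differences were -0.39 and -0.25. The BR10 call was kept in 9 of 20 alternative settings and was -0.23 (adjusted p = 0.272) without BR10 replicate 1. BR16 was above BLU667 by 0.39 (adjusted p = 0.0387, kept in 9 of 20), which turned to -0.04 (adjusted p = 0.677) with the GC trend removed. MNT (ENSG00000070444) lies at chr17:2384060-2401118 on the minus strand and shares 12.2% of its exonic bases with AC006435.1, an antisense gene listed at 0 in every library.

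MGA read 3.97 and 4.22 FPKM in DMSO, 3.63 and 3.74 in BLU667, 4.47 and 4.63 in BR8, 5.10 and 5.42 in BR10, and 4.78 and 4.46 in BR16. Every colony library was above every DMSO library, and every DMSO library was above both BLU667 libraries. The differences were small: BLU667 gave -0.12 against DMSO (adjusted p = 0.203), BR10 was higher than DMSO by 0.30 (adjusted p = 0.0157), and BR8 (0.12, adjusted p = 0.21) and BR16 (0.14, adjusted p = 0.167, or 0.23 with an adjusted p of 0.0192 once the GC trend was removed) did not pass. Against BLU667 MGA was higher in BR8 by 0.25 (adjusted p = 0.0238, or by 0.13 with an adjusted p of 0.116 once the GC trend was removed), in BR10 by 0.42 (adjusted p = 0.00213) and in BR16 by 0.26 (adjusted p = 0.0176). The colony average was 0.19 above DMSO (adjusted p = 0.0362, kept in 12 of 25 alternative settings) and 0.31 above BLU667 (adjusted p = 0.00286), and neither held with colony means as replicates (adjusted p = 0.395 and 0.126). MGA (ENSG00000174197) lies at chr15:41621224-41773081 on the plus strand.

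**Figure D2:**
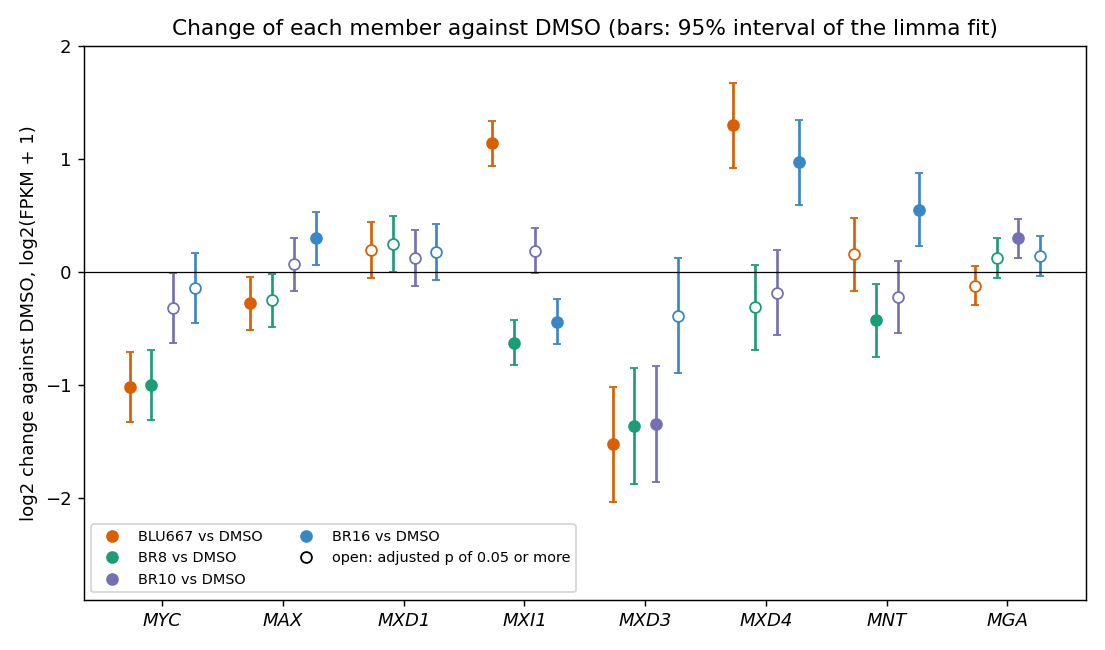
Log2 change against DMSO (y axis, log2(FPKM + 1) scale) of each member (x axis) in BLU667, BR8, BR10 and BR16, with the 95% interval of the limma fit; filled points have an adjusted p under 0.05. MYC is at -1.02 in BLU667 and -1.0 in BR8, and MXI1 is at 1.14 in BLU667 but at or below 0.19 in the colonies.

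Counted over the network, BLU667 against DMSO called 5 of 8 members, 2 higher (MXI1 and MXD4) and 3 lower (MYC, MAX and MXD3), where 60.2% of all tested genes were called (29% higher and 31.2% lower). The colony average against DMSO called 4 of 8, with MGA higher and MYC, MXI1 and MXD3 lower, against 49.2% of all genes (22.9% higher and 26.3% lower). Set against BLU667 the average called 6 of 8, with MYC, MAX, MXD3 and MGA higher and MXI1 and MXD4 lower, against 61.1% of all genes (32.4% higher and 28.7% lower). These shares are near those of the whole transcriptome, so the number of members called is not a result about the network, and the comparisons share the DMSO or BLU667 libraries. With the 3 colony means as replicates the counts were 0 of 8 against DMSO and 1 of 8 against BLU667. In that setting 1540 and 3656 of the 13927 tested genes were called, so these counts are no result about the network either.

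By colony, BR8 had 0 members higher and 4 lower than DMSO (of all genes 51.3% were called, 24% higher and 27.3% lower). BR10 had 1 higher and 1 lower (40.8%, 19.2% and 21.5%), and BR16 had 3 higher and 1 lower (45.5%, 21.9% and 23.6%). Against BLU667 the counts were 1 higher and 3 lower in BR8 (57.4% of all genes called, 30% higher and 27.4% lower). In BR10 they were 3 and 3 (53.6%, 27.9% and 25.6%), and in BR16 5 and 1 (58.7%, 32.1% and 26.7%). MXI1 was lower than BLU667 in all 3 colonies and MGA higher in all 3.

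The level of MYC beside its competitors was described as MYC's percentage of the summed FPKM of the 7 MAX partners. It was 70.1% and 73.0% in DMSO, 43.2% and 37.6% in BLU667, 62.7% and 65.2% in BR8, 66.6% and 69.5% in BR10, and 65.2% and 64.7% in BR16. BLU667 was apart from all other groups, and every colony library lay below both DMSO libraries. BR8 and BLU667, whose MYC levels were not told apart, had different sums for the other 6 partners: 21.9 and 20.5 FPKM in BR8 against 56.5 and 53.3 in BLU667. In DMSO that sum was 33.6 and 27.3, in BR10 28.3 and 28.9, and in BR16 36.3 and 38.4. These are transcript levels, and a share over members was given no test.

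**Figure D3:**
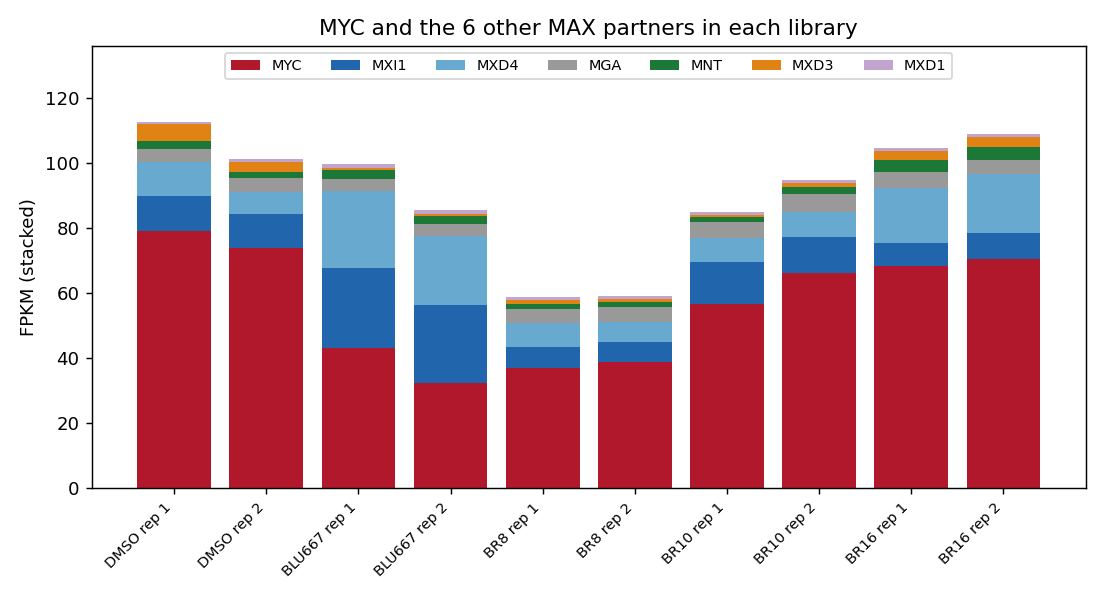
Stacked FPKM (y axis, linear from 0) of MYC and the other 6 MAX partners in each of the 10 libraries (x axis). The MYC segment is short in both BLU667 and BR8, and the MXI1 and MXD4 segments are tall in BLU667 and short in BR8, so that BR8 has the lowest stacks, at 58.7 and 59.1 FPKM.

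Differences among BR8, BR10 and BR16 were tested directly with limma's moderated F test, which called 6 of 8 members where 58.1% of all genes were called. The called members were MYC, MAX, MXI1, MXD3, MXD4 and MNT; MXD1 (adjusted p = 0.583) and MGA (adjusted p = 0.139) were not. BR8 was lower than BR10 in MYC and MXI1 (22.8% of all genes called, 11.3% higher and 11.5% lower). BR8 was lower than BR16 in 5 members (48.6% of all genes called, 24.1% higher and 24.5% lower): MYC (-0.86, adjusted p = 0.00171), MAX (-0.55, adjusted p = 0.00354), MXD3 (-0.98, adjusted p = 0.00827), MXD4 (-1.28, adjusted p = 0.00081) and MNT (-0.98, adjusted p = 0.00123). BR10 was higher than BR16 in MXI1 and lower in MXD3 (-0.96, adjusted p = 0.00989), MXD4 (-1.15, adjusted p = 0.00129) and MNT (-0.77, adjusted p = 0.00351), where 43.1% of all genes were called (21.1% higher and 22% lower). With the GC trend removed, MXD4 kept both of its differences from BR16 (-0.88 and -0.83), MNT kept that of BR8 (-0.35, adjusted p = 0.0127) but not that of BR10 (-0.21, adjusted p = 0.0798), and MXD3 kept neither (adjusted p = 0.108 and 0.0726). The same removal added calls for BR8: it then lay below BR10 in MAX (-0.30, adjusted p = 0.0499) and MGA (-0.21, adjusted p = 0.0411), and below BR16 in MXI1 and MGA (-0.23, adjusted p = 0.0258).

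**Figure D4:**
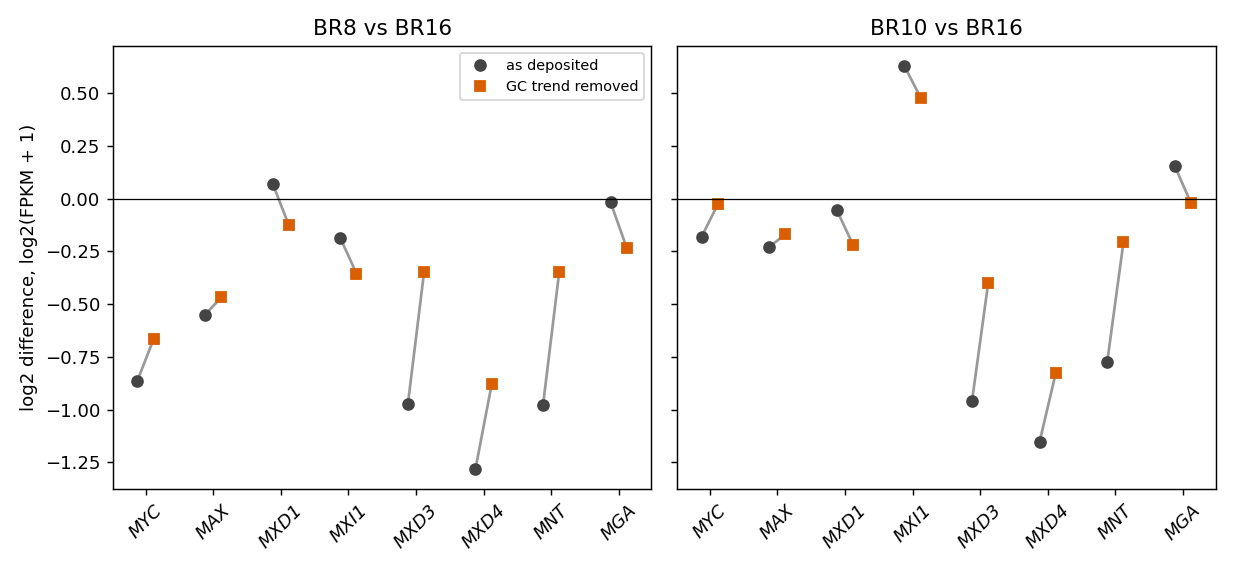
Log2 difference of BR8 (left) and BR10 (right) from BR16 for each member (y axis, log2(FPKM + 1) scale), as deposited (circles) and with each library's GC trend removed (squares), joined by a line. The lines are longest for the GC-rich members MXD3 and MNT, and MXD4 stays at -0.88 and -0.83 after removal.

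The other genes of the pathway were read from lists. Among 40 genes known to be induced by MYC, 39 were tested, and 36 fell under BLU667, 0 rose and 3 were not called. The median log2 change of the 39 was -1.44, where the median of all tested genes was -0.01 and 31.2% of them were lower. TERT, counted among the 36, passed the filter only through the 2 DMSO libraries. The filter thus picked it for being high in DMSO, and its count as lower than DMSO is no test. E2F1, a cell-cycle transcription factor, fell from a mean of 16.7 to 0.183 FPKM (-3.91 ± 0.13, adjusted p = 1.64e-07). TFRC, the transferrin receptor, went from 55.2 to 10.0 FPKM (-2.36 ± 0.12, adjusted p = 1.18e-06). NCL, the nucleolar protein nucleolin, read 173 and 170.0 FPKM in DMSO, 53.2 and 47.9 in BLU667, 45.1 and 50.3 in BR8, 91.7 and 101 in BR10, and 116 and 107 in BR16, so that BR8 overlapped BLU667 as it did for MYC.

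In the colony average 30 of the 39 induced genes were lower than DMSO and 0 higher (median -0.41; 26.3% of all genes lower), led by BOP1 (-1.48 ± 0.13, adjusted p = 4.73e-05), a ribosome assembly factor, and NCL (-1.09 ± 0.08, adjusted p = 1.3e-05). With colony means as replicates 10 of the 39 were lower, where 1540 of the 13927 tested genes were called in either direction. NCL lost its call there (adjusted p = 0.086). Counted by colony, 26 were lower and 1 higher in BR8, 24 and 0 in BR10, and 28 and 0 in BR16, where 27.3%, 21.5% and 23.6% of all genes were lower. TERT is among the lower genes of each colony, where the same limit of the filter applies to it. The medians were -0.46, -0.50 and -0.51. The 3 colonies therefore gave close medians for the induced genes while MYC itself was at -1.0, -0.32 and -0.14. Gene by gene they were less alike. In BR8 against BR16, 12 induced genes were higher and 14 lower (24.1% and 24.5% of all genes). In BR10 against BR16 the counts were 9 and 8 (21.1% and 22%), and in BR8 against BR10 they were 0 and 1 (11.3% and 11.5%). Against BLU667, 35 were higher and 1 lower in the average (median 0.87; 32.4% of all genes higher); the lower gene was NPM1, a nucleolar chaperone, at 294 against 379 FPKM (-0.37 ± 0.09, adjusted p = 0.00557, or 0.15 with colony means as replicates). In BR8, where MYC did not differ from BLU667 by the test, 29 induced genes were higher than BLU667 and 0 lower (30% of all genes higher), and E2F1 averaged 11 FPKM.

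**Figure D5:**
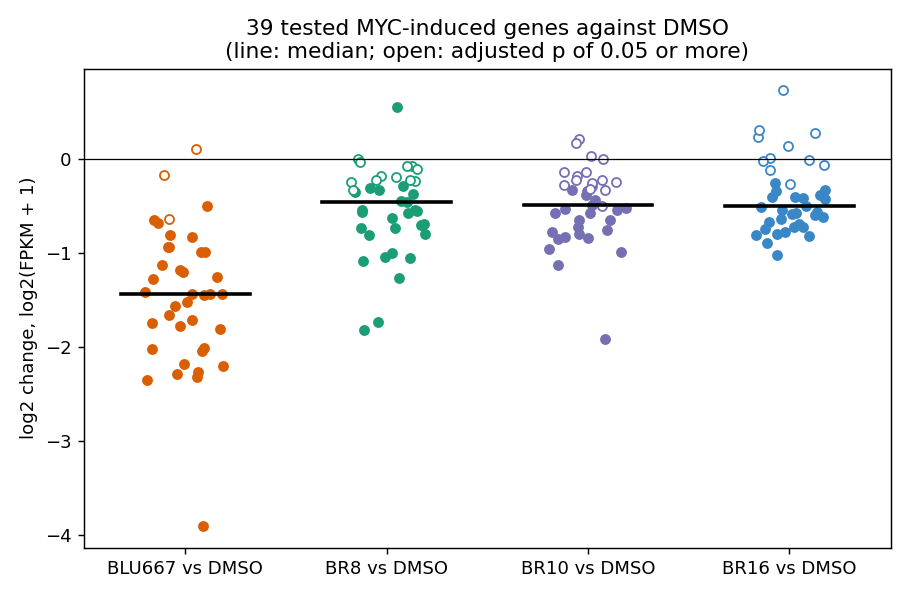
Log2 change against DMSO (y axis, log2(FPKM + 1) scale) of the 39 tested MYC-induced genes in BLU667, BR8, BR10 and BR16 (x axis); each point is a gene, filled where the adjusted p is under 0.05, and the line is the median. The medians are -1.44 in BLU667 and -0.46, -0.50 and -0.51 in the colonies. TERT, which passed the filter only through the DMSO libraries, is included.

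Promoter windows were available for 33 of the induced genes, and 19 of them held CACGTG, where 8.77% of 27305 genes did; the list was assembled from known MYC targets, so this describes the list. The E-box was absent from the windows of NCL, NPM1, E2F1 and TFRC.

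Of 16 genes known to be repressed by MYC, 14 were tested, and they moved in both directions. Under BLU667, 9 were higher and 2 lower (median 0.52; 29% of all genes were higher). CDKN1C, a CDK inhibitor, rose from a mean of 3.15 to 54.9 FPKM (3.75 ± 0.16, adjusted p = 5.1e-07), and CCNG2, a cyclin of growth-arrested cells, rose by 2.12 (adjusted p = 2.86e-06). GADD45A (-1.01, adjusted p = 0.000129) and CDKN1A (-0.53, adjusted p = 0.00757), both known as p53 targets, were lower. The colony average had 7 higher and 4 lower than DMSO (median 0.29; 22.9% of all genes were higher). There THBS1, an inhibitor of angiogenesis, averaged 637 FPKM in the colonies beside 135 in DMSO (2.16 ± 0.08, adjusted p = 4.4e-07) and CDKN1C was higher by 1.62, whereas PDGFRB (-1.32) and NDRG1 (-1.22) were lower. Against BLU667, 4 were higher and 9 lower (median -0.80; 28.7% of all genes were lower), with GADD45A (2.25) and KLF6 (0.44, adjusted p = 0.0811 with colony means as replicates) higher and PDGFRB (-3.27) and CDKN1C (-2.13) lower.

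Of the paralogs, MYCN was listed at 0 in every library, and MYCL passed the filter only through the 2 BLU667 libraries, so its values are given with no test. MYCL read 0.0533 and 0.0874 FPKM in DMSO, 2.52 and 3.08 in BLU667, 0.281 and 0.164 in BR8, 0.0733 and 0.0697 in BR10, and 0.645 and 0.623 in BR16. BLU667 was above all other libraries, at a level far below that of MYC. MLX, the dimerization partner of the parallel MLX network that also binds MXD1, MXD4 and MNT, was lower than DMSO in BLU667 (-0.46, adjusted p = 0.00479) and in the colony average (-0.31, adjusted p = 0.0149, or 0.2 with colony means as replicates).

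Among 15 chromatin cofactors of MYC, 12 were lower, 1 was higher and 2 were not called under BLU667 (median -0.59; of all genes 31.2% were lower and 29% higher). HCFC1, a host cell factor that binds MYC, fell from a mean of 27.3 to 7.22 FPKM (-1.78 ± 0.10, adjusted p = 2.65e-06), RUVBL2, a chromatin-remodelling helicase, fell by 1.66 (adjusted p = 3.04e-05), and BPTF, a NURF subunit, was higher (0.39, adjusted p = 0.00841, or 0.0716 with only those groups fitted). The colony average had 9 lower and 0 higher than DMSO (median -0.31; 26.3% of all genes lower and 22.9% higher), with HCFC1 at -1.01 and RUVBL2 at -0.64 (adjusted p = 0.154 with colony means as replicates). Against BLU667, 8 were higher and 1 lower (median 0.34; 32.4% of all genes higher and 28.7% lower), led by WDR5, which recruits MYC to chromatin (1.27, adjusted p = 1.29e-06), and RUVBL1 (1.16, adjusted p = 7.35e-06).

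Of 15 genes that act on MYC protein stability, 9 were lower and 3 higher under BLU667 (median -0.51; 31.2% of all genes lower and 29% higher). The mitotic kinases PLK1 (from 39 to 1.0 FPKM, -4.32 ± 0.09, adjusted p = 3.74e-08) and AURKA (from 48.3 to 1.67 FPKM, -4.21 ± 0.13, adjusted p = 1.16e-07) fell furthest, and both are known to oppose degradation of MYC proteins. GSK3B, which phosphorylates MYC for degradation (0.57, adjusted p = 0.00126), and PPP2R5A, a PP2A subunit (0.67, adjusted p = 0.000179), were higher. In the colony average 7 were lower and 1 higher than DMSO (median -0.14; 26.3% of all genes lower and 22.9% higher). The higher gene was USP36, a nucleolar deubiquitinase that acts on MYC (0.54, adjusted p = 0.000345, or 0.0875 with colony means as replicates). Against BLU667, 9 were higher and 2 lower (32.4% of all genes higher and 28.7% lower), with AURKA at 3.07 and PLK1 at 2.64 and with PPP2R5A (-0.80) and GSK3B (-0.39, adjusted p = 0.126 with colony means as replicates) lower.

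Of 15 genes of the SIN3-HDAC corepressor used by MXD proteins and MNT, 3 were higher and 7 lower under BLU667 (median -0.25; 29% of all genes higher and 31.2% lower), with ARID4A (0.87, adjusted p = 0.000688) and ARID4B (0.48, adjusted p = 0.00339) higher and SAP30 (-1.49, adjusted p = 4.54e-05) and RBBP7 (-1.25, adjusted p = 4.72e-06) lower. In the colony average 1 was higher and 6 lower than DMSO (median -0.16; 22.9% of all genes higher and 26.3% lower), and against BLU667 4 were higher and 4 lower (median 0.08; 32.4% and 28.7%). RBBP4 (0.21) was the higher gene against DMSO, and SAP130 (-0.71) and SAP30 (-0.66) were lowest; with colony means as replicates RBBP4 and SAP130 lost their calls (adjusted p = 0.428 and 0.0642). With colony means as replicates the counts lower than DMSO came to 1 SIN3-HDAC gene, 1 cofactor, 2 stability genes and 1 PRC1.6 partner. Of the 13927 tested genes, 1540 were then called in either direction.

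Among the 9 PRC1.6 partners of MGA, 1 was higher and 5 lower under BLU667 (median -0.50; 29% of all genes higher and 31.2% lower). TFDP1, the E2F dimerization partner, fell from a mean of 79.3 to 26.3 FPKM (-1.55 ± 0.09, adjusted p = 3.18e-06), PCGF6, the subunit that defines the complex, fell by 1.17 (adjusted p = 5.81e-05), and RYBP was higher (0.56, adjusted p = 0.00201). PCGF6 was also lower than DMSO in the colony average (-0.79 ± 0.10, adjusted p = 0.000275), where MGA was 0.19 higher. In that average 2 partners were lower, or 5 with the GC trend removed, and 1 was higher, RYBP (0.32, adjusted p = 0.0156, or 0.234 without BR8), where 26.3% of all genes were lower and 22.9% higher. Of 16 germline genes silenced by this complex, 15 did not reach the filter. Levels among these 15 were not uniform. DDX4 and SYCP1 were at 0 in every library. MAEL averaged 0.135 FPKM in DMSO, 0.380 in BLU667, 1.03 in BR8, 0.480 in BR10 and 0.816 in BR16. STAG3 averaged 0.135, 0.693, 0.101, 0.165 and 0.382 FPKM in the same order. These low levels were not tested. TDRKH, the gene tested, was lower under BLU667 (-0.57, adjusted p = 0.00278) and gave -0.07 in the colony average against DMSO.

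Genes whose pattern was most like a member's were ranked by Pearson's r of log2(FPKM + 1) over the 10 libraries, among 4542 protein-coding genes whose group means spanned at least 1 on that scale; these libraries come from 5 groups, and r is given as a description. For MYC they were UBQLN4 (r = 0.976), MAFF (0.969), ARRB2 (0.964), NCL (0.962) and EMD (0.954). For MXI1 they were IFI44L (0.992), CTDSP2 (0.987) and METTL7A (0.983), with METTL7A at 2.84, 12.7, 0.581, 2.5 and 0.622 FPKM in DMSO, BLU667, BR8, BR10 and BR16. IFI44L averaged 0.465, 2.53, 0.0114, 0.635 and 0.00601 FPKM in the same order. It was thus under 1 FPKM on average in every group but BLU667, where MXI1 peaked. For MXD4 they were PTP4A3 (0.994), MRTFA (0.987) and DDR1 (0.986), each high in BLU667 and BR16. DUS3L, DOT1L and CLPP were most like MXD3, VPS9D1, KIFC2 and SLC25A6 most like MNT, PEA15 and CTTN most like MAX, THRB, CTSO and EDNRA most like MXD1, and SAMD5, PGD and WDR1 most like MGA.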

How the data were processed

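RNA-seq of 10 libraries (5 groups of 2) was used. Per the labels' protocols, total RNA went through a GlobinClear step into NEB libraries that do not keep strand. Reads were called with CASAVA, aligned to GRCh38 (hg38) with STAR 2.5, counted with HTSeq 0.6.1 and tested by the authors with DESeq2, given as version 2, per the submitters' processing notes. No annotation release was stated there. Values deposited by the authors were FPKM for 58735 genes; multiplied by gene length, 100% of them came out as whole reads (tolerance 0.05).

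The 13927 genes that reached 1 FPKM in 2 or more libraries entered limma 3.58.1 (R 4.3.3) as log2(FPKM + 1); all 5 groups shared 1 model, with a variance trend and 5 residual degrees of freedom. The pseudocount understates changes of low genes. Two-sided p were adjusted by Benjamini-Hochberg over all tested genes and called under 0.05. The adapted-colony value is the mean of 3 colony means, so its SE covers libraries and not colonies. The fit was tested on simulated data.

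Members, lists, motifs and tests were chosen with earlier results of these data known, the motifs with the promoter sequences in view. Named were all members; from each list and main comparison the called genes with the largest change, at most 2 each way; and genes most like a member. Some genes that met this rule are left out. NCL values per library, the absence of an E-box in 4 named targets and the BR8 level of E2F1 were added after their values were seen. Exon overlaps came from GENCODE 29, promoters from RefSeq. Alternatives were a pseudocount of 0.1 or 0.25, an FPKM filter of 5 or none, other normalizations, GC trend removal (loess, span 0.3), voom on recovered reads, no variance trend, a replicate block, a fit of the compared groups alone, colony means taken as replicates, and libraries or colonies left out. Python 3.11.15 and matplotlib 3.10.9 drew the figures.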

Additional observations from a re-analysis of the deposited data

Results flagged for a closer look

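The 3 adapted colonies differed from each other in 6 members by limma's moderated F test with Benjamini-Hochberg adjustment over all tested genes, where 58.1% of all tested genes differed. The adjusted p was 0.00243 for MYC (37.7, 61.2 and 69.3 FPKM in BR8, BR10 and BR16), 0.00657 for MAX (5.48, 7.07 and 8.45), 0.000463 for MXI1 (6.47, 12.2 and 7.50), 0.00912 for MXD3 (0.944, 0.999 and 2.82), 0.000856 for MXD4 (6.66, 7.36 and 17.6) and 0.00166 for MNT (1.45, 1.83 and 3.82). With the GC trend removed, MXD3 lost this call (adjusted p = 0.0964) and MGA gained it (adjusted p = 0.0296).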

How the results depend on the processing

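Most member values kept their direction and their side of the threshold over the alternatives: 151 of 165 for BLU667 against DMSO, 178 of 197 for the colony average against DMSO and 177 of 197 against BLU667. MYC under BLU667 kept its call in each of 21 settings and ranged from -1.22 to -0.82 with single libraries left out. Leaving out libraries gave -0.53 to -0.44 for MYC in the colony average against DMSO and 0.33 to 0.74 against BLU667. Where this left a group with 1 library, that library was assumed to vary like the other groups.

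With colony means as replicates (3 values against 2), 0 members were called against DMSO and 1 against BLU667, and MYC stood at -0.49 (adjusted p = 0.297) and 0.53 (adjusted p = 0.192); 1540 and 3656 genes in all were then called, beside 6848 and 8507 before. Leaving out BR8 gave 2 members against DMSO and MYC at -0.23 (adjusted p = 0.15), and a filter of FPKM of at least 5 gave 2, since MXD3 no longer entered the test and MGA lost its call (0.19, adjusted p = 0.0538). MNT in BR16 against BLU667 reversed to -0.042 with the GC trend removed, and KRT8 in the colonies against DMSO reversed from 0.42 to -0.086 (adjusted p = 0.539) without BR16. Counted in reads and not per length, MYC's share of the MAX partners was 50.2% in DMSO, 23.3% in BLU667, 38.3% in BR8, 44.6% in BR10 and 41.4% in BR16. The shares differ because MYC has the shortest gene length of the 7, 3001 bases of merged exons. MXD3 (51 to 480 reads per library) and MXD1 (86 to 145) rest on the fewest reads.

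Replicate numbers did not pair the samples: over 10 pairs of groups the deviations of same-numbered libraries correlated at -0.16 to 0.11. A replicate block kept 98 of 104 member values on the same side and lost 6 calls, with MYC in BLU667 at -1.02 (adjusted p = 0.000741). The members called under the block numbered 4 of 8 in BLU667 against DMSO and 3 of 8 in the colony average against DMSO. The share of all tested genes called under the block is not given here, so these counts are not a result about the members.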
